A study of Mus musculus with 6 samples.

Results

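The smooth muscle contractile genes described here are Acta2, Actg2, Tpm1, Tpm2, Tpm4, Cnn1, Tagln, Lmod1, Myl9 and Mylk, chosen by name as genes whose proteins build or drive the contractile filaments of smooth muscle cells and myofibroblasts. All 10 were found among the 49671 genes of the count table, and all 10 were among the 15197 genes that passed the filter on low counts and were tested. Their lowest value in any library was 8.10 CPM (counts scaled to a common library total; Actg2 in pHe6.6 replicate A), so that none passed the filter through a single group.

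The cells were primary pancreatic stellate cells (PSCs), fibroblasts that reside in this organ, taken from C57BL6/J WT mice by enzymatic digestion and adherence, and grown on plastic dishes in serum-containing DMEM/Ham F12. The medium held less or more sodium bicarbonate, which set its extracellular pH (pHe) to 6.6 or 7.4, and RNA was sequenced after 120 h. The pHe6.6 group and the pHe7.4 group each had 3 biological replicates, A, B and C, and the groups were alike in genotype, plating and time. In the study's methods a biological replicate stands for a mouse, but no source used here says if A, B and C mark the same animals at both pHe values.

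In smooth muscle, filaments of α- and γ-actin are gripped by myosin II, whose regulatory light chain must be phosphorylated by myosin light chain kinase before it can pull. Tropomyosins lie along the actin filament, calponin and transgelin bind to its side, and leiomodin starts new filaments. Many of these genes are driven by serum response factor (SRF) with its cofactors of the myocardin family, which bind the CArG box, a run of A and T bases between CC and GG. A stellate cell that turns into a myofibroblast takes up α-smooth muscle actin, the product of Acta2, which is the usual marker of that change.

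CArG boxes were looked for in the RefSeq promoters (assembly GRCm38.p6, the 300 bases around the annotated start, of which 250 lie before it) of the 8 members with an entry; Actg2 and Tagln were not among them. An exact CArG box lay in the Myl9 promoter, against 1.63% of all 32851 promoters of this length, and a CArG box with at most 1 letter changed lay in those of Acta2, Lmod1, Myl9 and Tpm1, against 21.1% of all promoters. CATTCC, the MCAT motif of TEAD factors, was found on either strand in the promoters of Acta2, Lmod1, Mylk and Tpm1, against 14.7% of all promoters. No MCAT match overlapped a CArG match in these windows. Each window stands for 1 annotated start, and other starts of the same gene were not searched. That of Mylk (chr16:34784700-34784999) lies inside the gene's annotated span. Acta2, Lmod1, Myl9 and Tpm1 each held 2 CArG matches, those of Tpm1 beginning at -221 and -80 from the start. The 3 stretches below (matches in capitals) are shown for an actin, an actin nucleator and a myosin light chain. In Acta2 (chr19:34255378-34255477, minus strand) both matches are 1 letter off and begin at -84 and -34 from the start. In Myl9 (chr2:156775283-156775394, plus strand) the match at -161 is exact and that at -99 is 1 letter off. In Lmod1 (chr1:135324604-135324678, plus strand) the matches at -189 and -164 are both 1 letter off. Each sequence is written 5′ to 3′ along its gene's strand.
Acta2: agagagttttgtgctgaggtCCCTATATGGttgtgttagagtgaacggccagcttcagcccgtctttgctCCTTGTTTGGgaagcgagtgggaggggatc
Myl9: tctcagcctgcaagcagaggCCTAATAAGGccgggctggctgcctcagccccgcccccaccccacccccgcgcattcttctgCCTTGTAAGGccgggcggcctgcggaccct
Lmod1: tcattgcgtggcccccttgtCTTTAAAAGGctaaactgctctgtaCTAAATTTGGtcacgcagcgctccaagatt

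The libraries held 28904761 to 38331877 counts, so that 1 count was worth 0.0252 to 0.0339 CPM after TMM normalization, which scales each library by its composition. The 10 stellate cell and fibroblast markers were all expressed and summed to 36191 to 39770 CPM at pHe6.6, against 37184 to 47157 CPM at pHe7.4. Markers of other cells were also detected: 16 mesothelial markers summed to 220 to 766 CPM at pHe6.6, against 1786 to 1851 CPM at pHe7.4, and pHe6.6 replicate A had the lowest value of the 3 pHe6.6 libraries for all 16. In bulk RNA, fewer cells of a type and less RNA per cell cannot be told apart.

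As a group, the contractile genes did not move in a single direction. At pHe6.6, 3 of the 10 were higher (Tpm4, Mylk and Lmod1), 3 were lower (Actg2, Cnn1 and Tpm2) and 4 did not pass the test (Acta2, Tpm1, Tagln and Myl9). A gene was called at an adjusted p under 0.05 (edgeR's quasi-likelihood test, Benjamini-Hochberg adjustment over all 15197 genes), a threshold that 52.3% of all genes tested passed, 26.4% as higher and 25.9% as lower at pHe6.6. The share of members called, 6 of 10, is therefore near that of all genes. The median log2 fold change (pHe6.6 over pHe7.4) was -0.22 over the members and -0.011 over all genes. The pHe6.6 and pHe7.4 libraries did not overlap for 7 of the 10 members, against 63.2% of all genes. When pHe6.6 replicate B was left out, 9 members were called, 3 as higher and 6 as lower, against 51.4% of all genes in that fit (25.6% higher, 25.8% lower), whereas leaving out any other library gave 6.

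**Figure D1:**
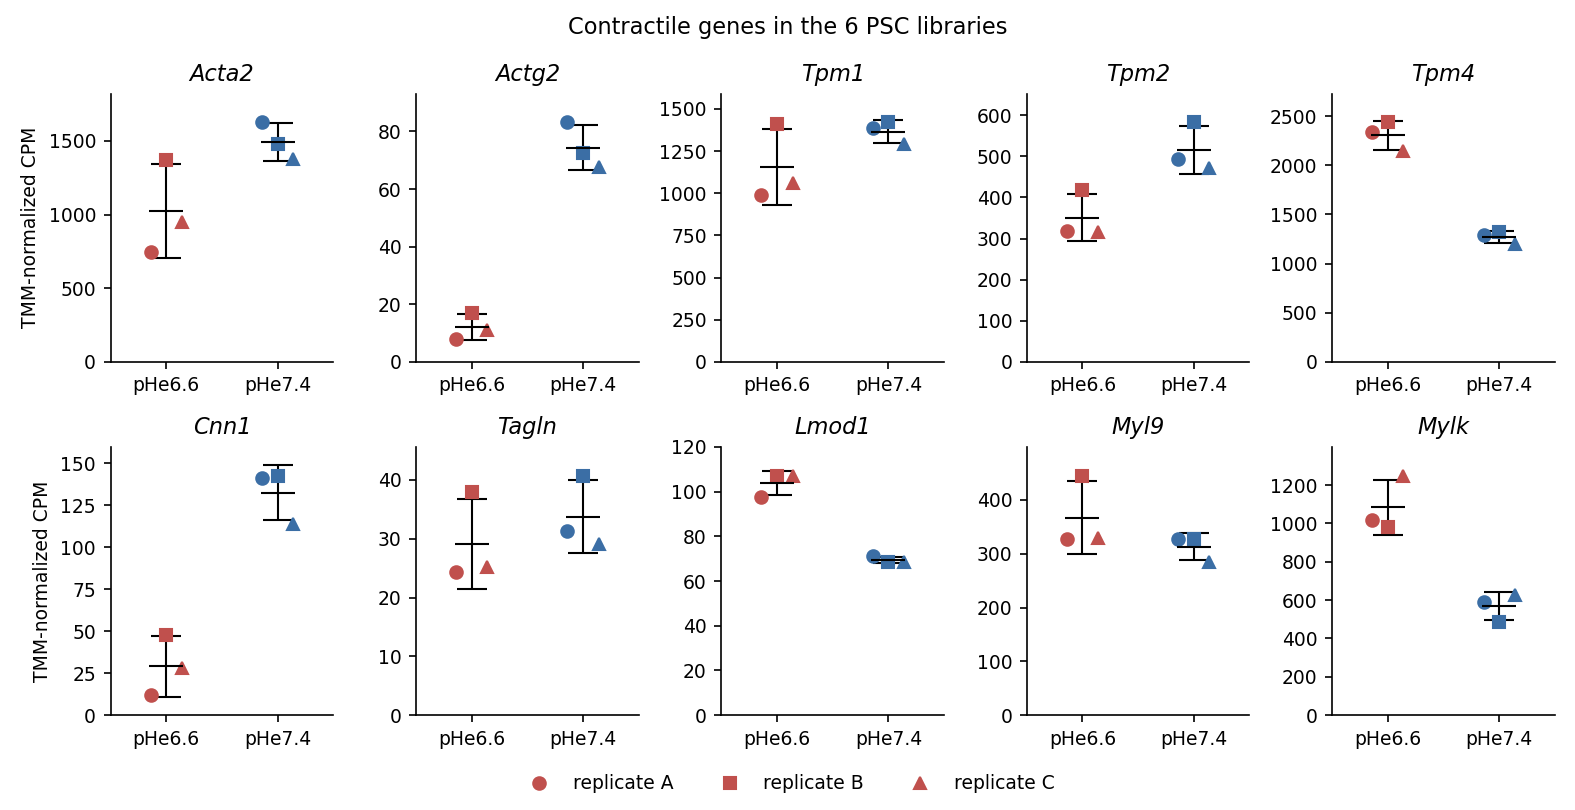
TMM-normalized CPM (linear axes from 0) of each contractile gene in the 3 pHe6.6 (red, left) and 3 pHe7.4 (blue, right) libraries, with marker shapes for replicates A, B and C and black bars for mean ± SD. Actg2 and Cnn1 lie far lower at pHe6.6, and Tpm4, Mylk and Lmod1 lie higher. Within the pHe6.6 group replicate B lies above A and C for 8 of the 10 genes, all but Mylk and Lmod1.

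**Figure D2:**
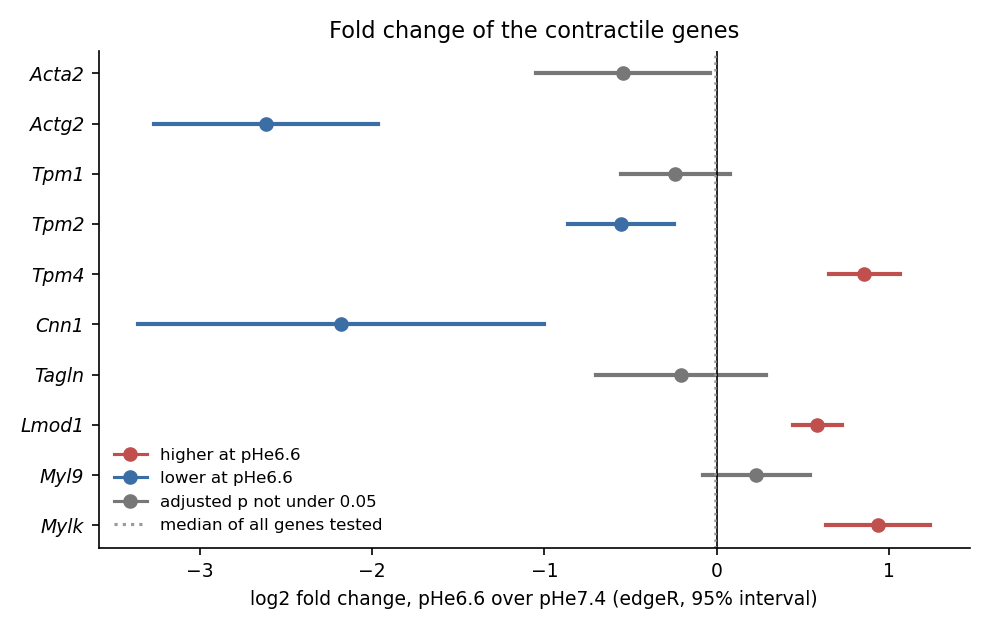
Log2 fold change of each contractile gene (horizontal axis, pHe6.6 over pHe7.4) as fitted by edgeR, with its 95% interval. Intervals of the 6 genes called (red and blue) stay clear of 0, that of Acta2 ends at -0.04, and the dotted line marks the median of all genes tested (-0.011).

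Both smooth muscle actins had lower mean levels at pHe6.6, and of these differences that of Actg2 passed the test. Acta2 (ENSMUSG00000035783, chr19:34241090-34255590 on GRCm38) encodes α-smooth muscle actin and had 746, 1371 and 949 CPM in pHe6.6 replicates A, B and C, against 1626, 1478 and 1374 CPM in pHe7.4 replicates A, B and C. Every pHe6.6 library was below every pHe7.4 library, but replicate B of pHe6.6 reached nearly the level of replicate C of pHe7.4. The means were 1022 ± 318 CPM at pHe6.6, against 1493 ± 126 CPM at pHe7.4 (SD, n = 3 each), and the log2 fold change was -0.55 (95% interval -1.05 to -0.04). With an adjusted p of 0.0670 (edgeR), this difference missed the threshold. It passed with DESeq2 (adjusted p = 0.0121), with limma-voom (adjusted p = 0.0433) and in edgeR without pHe6.6 replicate B (adjusted p = 0.00209). Adjusted p-values over all 14 alternatives ranged from 0.00209 to 0.857. The highest came from edgeR's glmTreat, which tests against a change of 0.58 on the log2 scale and not against 0. The next highest was 0.230, from edgeR without the filter on low counts.

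Actg2 (ENSMUSG00000059430, chr6:83512905-83536265), the γ-smooth muscle actin typical of visceral smooth muscle, showed the largest decrease among the members. It had 8.10, 17.1 and 11.1 CPM in pHe6.6 replicates A, B and C, against 83.2, 72.4 and 67.6 CPM in the pHe7.4 replicates. The highest pHe6.6 library thus stayed far below the lowest pHe7.4 library. Mean expression was 12.1 ± 4.56 CPM at pHe6.6, against 74.4 ± 7.96 CPM at pHe7.4 (SD, n = 3 each). The fold fitted by edgeR was 6.12 in favor of the pHe7.4 group. The log2 fold change of -2.61 (SE 0.27, adjusted p = 0.00050, edgeR) was called under all 14 alternatives.

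Of the counts of 6 actin genes (Acta2, Actg2, Actb, Actg1, Acta1 and Actc1), Acta2 and Actg2 together took 13.6%, 19.0% and 14.96% in pHe6.6 replicates A, B and C, against 22.5%, 20.3% and 19.7% in the pHe7.4 replicates. The mean share was 15.8% ± 2.79 at pHe6.6 and 20.8% ± 1.45 at pHe7.4 (SD, n = 3 each), a difference of -4.99 percentage points. The groups did not overlap, and the two-sided exact permutation test gave p = 0.1, the smallest value that 3 against 3 libraries allow. Almost all of this share was Acta2, since Actg2 took 0.184% of actin counts at pHe6.6 and 0.989% at pHe7.4. The cytoplasmic actins Actb and Actg1 differed by -0.13 and -0.25 on the log2 scale (adjusted p = 0.340 and 0.104, edgeR), and Acta1, the skeletal muscle actin, by -1.22 (adjusted p = 0.0958); none of the 3 was called. Actc1, the cardiac actin, had 10 counts over the pHe6.6 libraries and 33 over the pHe7.4 libraries and was not tested.

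The tropomyosin genes went in opposite directions. Tpm4 (ENSMUSG00000031799, chr8:72134975-72153142), which in rodents codes mainly for a short cytoskeletal tropomyosin, had 2333, 2437 and 2140 CPM in pHe6.6 replicates A, B and C, against 1293, 1322 and 1202 CPM in the pHe7.4 replicates. The libraries of each group lay close together, and the lowest pHe6.6 library was well above the highest pHe7.4 library. Tpm4 averaged 2303 ± 151 CPM at pHe6.6, against 1273 ± 62.5 CPM at pHe7.4 (SD, n = 3 each), 1.81-fold higher at pHe6.6, with a log2 fold change of 0.86 (SE 0.09, adjusted p = 2.05e-04, edgeR). Of its exon bases, 6.08% are shared with an antisense gene model, Gm26586, which had at most 85 counts in any library.

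Tpm2 (ENSMUSG00000028464, chr4:43514711-43523765), the β-tropomyosin of smooth and skeletal muscle, was lower. It had 319, 417 and 316 CPM in pHe6.6 replicates A, B and C, against 492, 583 and 473 CPM in the pHe7.4 replicates. The groups did not overlap, and the log2 fold change was -0.56 (SE 0.13, adjusted p = 0.00993, edgeR), although a test against a change of 0.58 on the log2 scale did not call it (adjusted p = 0.846).

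Tpm1 (ENSMUSG00000032366, chr9:67022590-67049406), the α-tropomyosin gene, had 993, 1412 and 1063 CPM in pHe6.6 replicates A, B and C, against 1385, 1421 and 1292 CPM in the pHe7.4 replicates. Replicate B of pHe6.6 lay within the pHe7.4 range and the other pHe6.6 libraries lay below it. Its log2 fold change was -0.24 (95% interval -0.56 to 0.08, adjusted p = 0.171, edgeR), and without pHe6.6 replicate B the adjusted p was 0.00666. Leaving out any other library gave an adjusted p of 0.203 to 0.452 (edgeR). Tpm1 has 21 annotated transcripts in GENCODE vM21, from muscle and nonmuscle forms, and the counts per gene do not tell these apart.

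The balance among the tropomyosin genes was computed with Tpm3, a mainly nonmuscle tropomyosin gene, included. Tpm4 took 61.2%, 54.7% and 58.0% of the counts of Tpm1 to Tpm4 in pHe6.6 replicates A, B and C, against 38.1%, 37.2% and 37.7% in the pHe7.4 replicates. The share of Tpm4 was above the pHe7.4 range in every pHe6.6 library, and those of Tpm1, Tpm2 and Tpm3 were below it. On average Tpm4 held 57.9% ± 3.23 at pHe6.6, against 37.7% ± 0.460 at pHe7.4, and Tpm1 held 28.8% ± 2.84 at pHe6.6, against 40.4% ± 0.420 at pHe7.4 (SD, n = 3 each). Tpm2 held 8.76% ± 0.531 at pHe6.6, against 15.2% ± 1.01 at pHe7.4, and Tpm3 held 4.46% ± 0.195 at pHe6.6, against 6.69% ± 0.188 at pHe7.4. The leading tropomyosin gene by counts was Tpm4 at pHe6.6 and Tpm1 at pHe7.4, while per kb of exon Tpm4 was above Tpm1 in both groups. For each of the 4 shares the two-sided exact permutation test gave p = 0.1, the smallest possible, and 0.1 after adjustment over the 4 genes.

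**Figure D3:**
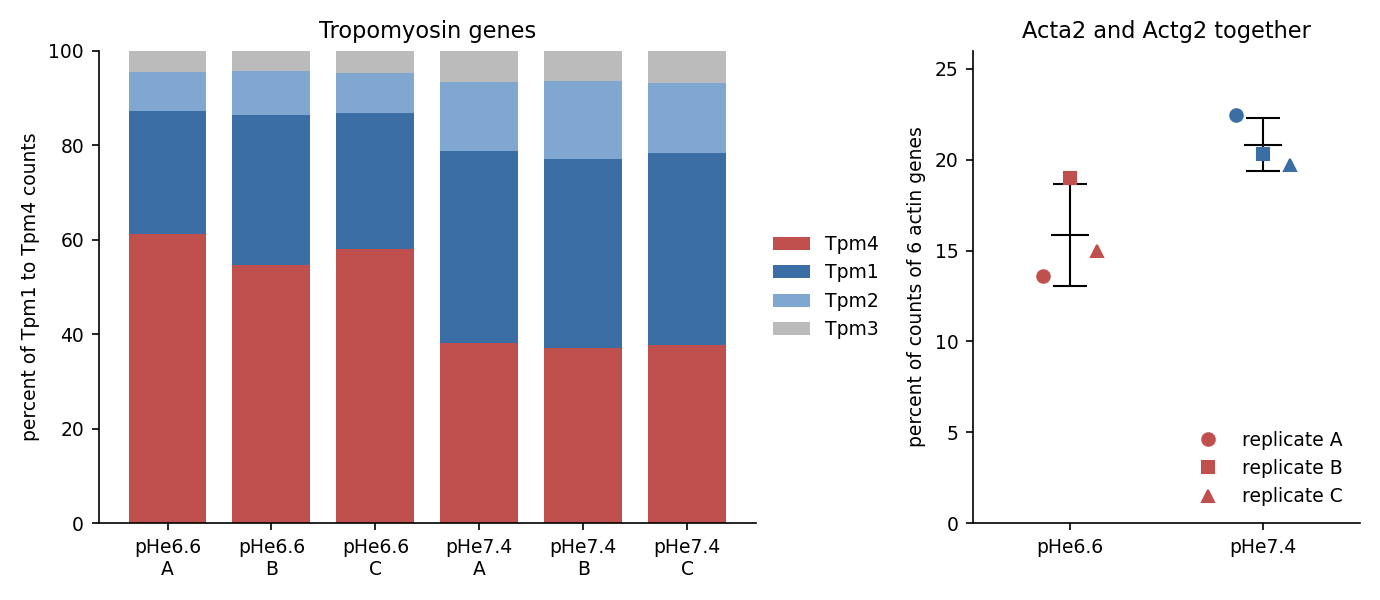
Left, percent of the counts of Tpm1 to Tpm4 that each tropomyosin gene took in each library, as stacked bars. Right, percent of the counts of 6 actin genes that Acta2 and Actg2 took, with points for libraries and bars for mean ± SD (n = 3). Tpm4 takes 54.7% to 61.2% of tropomyosin counts at pHe6.6 and 37.2% to 38.1% at pHe7.4.

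Among the proteins that bind along the actin filament, Cnn1 had the largest difference. Cnn1 (ENSMUSG00000001349, chr9:22099216-22109630) encodes calponin 1, a smooth muscle protein that restrains the actin-activated myosin ATPase. It had 11.7, 47.8 and 27.8 CPM in pHe6.6 replicates A, B and C, against 141, 143 and 114 CPM in the pHe7.4 replicates. The groups were well separated, but within pHe6.6 replicate B was 4.08-fold above replicate A. Cnn1 averaged 29.1 ± 18.1 CPM at pHe6.6, against 132 ± 16.2 CPM at pHe7.4 (SD, n = 3 each), and the log2 fold change was -2.18 (SE 0.48, adjusted p = 0.0114, edgeR). Without the filter on low counts the adjusted p was 0.0607, while each fit that left out a library still called it.

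Lmod1 (ENSMUSG00000048096, chr1:135324807-135368065), leiomodin 1, which nucleates actin filaments in smooth muscle, went the other way. It had 97.7, 107 and 107 CPM in pHe6.6 replicates A, B and C, against 71.0, 68.6 and 68.6 CPM in the pHe7.4 replicates. Both groups were tight and did not overlap. The log2 fold change was 0.58 (SE 0.06, adjusted p = 2.22e-04, edgeR), but Lmod1 was not called against a change of 0.58 on the log2 scale (adjusted p = 0.706).

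Tagln (ENSMUSG00000032085, chr9:45929619-45936058) encodes transgelin, also known as SM22α, a calponin relative that bundles actin. It had 24.3, 38.0 and 25.2 CPM in pHe6.6 replicates A, B and C, against 31.4, 40.7 and 29.1 CPM in the pHe7.4 replicates, so the groups overlapped. The log2 fold change was -0.21 (95% interval -0.70 to 0.28, adjusted p = 0.425, edgeR), and 0.0396 was the adjusted p without pHe6.6 replicate B. Leaving out any other library gave an adjusted p of 0.320 to 0.844 (edgeR). These Tagln values are uncertain. Of its exon bases 62.4% are covered by the antisense gene model Gm48529 and 5.43% by Pcsk7, and since the strand setting of the counting is not given, reads of these genes cannot be told apart here. Gm48529 itself had 29, 58 and 68 counts at pHe6.6, against 123, 102 and 118 at pHe7.4.

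Of the 2 members that act on myosin, 1 was higher at pHe6.6 and 1 was not called. Myl9 (ENSMUSG00000067818, chr2:156775420-156781658), the regulatory light chain of smooth muscle myosin, had 327, 445 and 329 CPM in pHe6.6 replicates A, B and C, against 327, 328 and 284 CPM in the pHe7.4 replicates. The groups overlapped, and the log2 fold change was 0.23 (95% interval -0.08 to 0.54, adjusted p = 0.181, edgeR). Mylk (ENSMUSG00000022836, chr16:34745210-35002420), the kinase that phosphorylates this light chain, had 1020, 982 and 1250 CPM in pHe6.6 replicates A, B and C, against 589, 485 and 626 CPM in the pHe7.4 replicates. Every pHe6.6 library was above every pHe7.4 library. Mylk was 1.91-fold higher at pHe6.6, with a log2 fold change of 0.94 (SE 0.13, adjusted p = 8.25e-04, edgeR). The gene also gives nonmuscle kinase forms and telokin, a short protein from its last exons, and the counts sum over these. Of the exon bases of Mylk, 6.85% are shared with the antisense gene models E130310I04Rik and Gm21691. These models were not found in the count table.

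The order of the members by level, in CPM per kb of merged exons, had different leaders in the groups. At pHe6.6 Tpm4 led with 1046 CPM per kb, before Acta2 with 465, Myl9 with 316, Tpm1 with 178, Tpm2 with 121 and Mylk with 96.2. The remaining 4 were Lmod1 with 26.3, Tagln with 14.7, Cnn1 with 10.6 and Actg2 with 7.77 CPM per kb. Neighbours whose libraries overlapped at pHe6.6 were Acta2 and Myl9, Tpm2 and Mylk, Tagln and Cnn1, and Cnn1 and Actg2. At pHe7.4 Acta2 led with 680 CPM per kb, before Tpm4 with 578, Myl9 with 269, Tpm1 with 211, Tpm2 with 177 and Mylk with 50.3. Cnn1 followed with 48.4, Actg2 with 47.8, Lmod1 with 17.6 and Tagln with 17.0 CPM per kb. The place of Tagln is uncertain in both groups, since 67.9% of its exon bases overlap other genes. The overlapping neighbours at pHe7.4 were Tpm1 and Tpm2, Mylk and Cnn1, Cnn1 and Actg2, and Lmod1 and Tagln. Summed over all 10 members, expression was 5880, 7273 and 6218 CPM in pHe6.6 replicates A, B and C, against 6039, 5941 and 5530 CPM in the pHe7.4 replicates, so the groups overlapped in total while the makeup of that total differed.

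The pHe6.6 cultures were less alike in these genes than the pHe7.4 cultures. The coefficient of variation was higher at pHe6.6 for all 10 members, against 51.5% of all genes tested, and its median over the members was 18.9% at pHe6.6 and 9.58% at pHe7.4. Over all genes these medians were 8.82% at pHe6.6 and 9.26% at pHe7.4. Genes outside the members showed the wider spread as well. The coefficient was higher at pHe6.6 for 39 of 60 related genes and for 15 of 16 mesothelial markers. Over 15 other smooth muscle differentiation genes its median was 18.9% at pHe6.6 and 9.49% at pHe7.4. Over 14 genes that control light chain phosphorylation it was 5.45% at pHe6.6 and 7.16% at pHe7.4. Replicate B was the highest pHe6.6 library for 8 of the 10 members (36.0% of all genes) and replicate A the lowest for 7 (35.5% of all genes). This order was not particular to the members: among 60 related genes of the actin and myosin system, replicate B was highest for 42 and replicate A lowest for 38. The ratio of B to A was 4.08 for Cnn1, 2.11 for Actg2 and 1.84 for Acta2. The 16 mesothelial markers also differed among the pHe6.6 libraries, where replicate A was lowest for all 16 and replicate B highest for 8. They summed to 220, 766 and 582 CPM in pHe6.6 replicates A, B and C, against 1786, 1809 and 1851 CPM in the pHe7.4 replicates. Of these markers, 10 were lower at pHe6.6, none was higher, 6 were not called and none was at 0 in any library. Among those lower, Krt19, highest in replicate B of pHe6.6, had a log2 fold change of -1.90. Upk3b, highest in replicate C, had -2.56. The list is not specific to mesothelial cells, since the study used CK19, the product of Krt19, to mark ductal and tumor cells. The part of these 16 markers in the differences of Actg2, Cnn1 and Acta2 was not tested. Endothelial markers (6 genes) summed to 18.1 to 31.2 CPM at pHe6.6, against 45.9 to 56.3 CPM at pHe7.4. Of these, 5 were lower and Tek was higher. Acinar and ductal markers (8 genes) summed to 36.2 to 88.9 CPM at pHe6.6, against 141 to 186 CPM at pHe7.4. Of the 7 tested, Cldn7 and Sox9 were lower, and Epcam and the acinar genes Cpa1, Prss2, Pnlip and Cela1 were not called. Epcam and Cldn7 were also lowest in replicate A and highest in replicate B of pHe6.6. Macrophage and leukocyte markers (9 genes) summed to 368 to 697 CPM at pHe6.6, against 369 to 582 CPM at pHe7.4. Of the 6 tested, 2 were higher and 1 was lower.

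**Figure D4:**
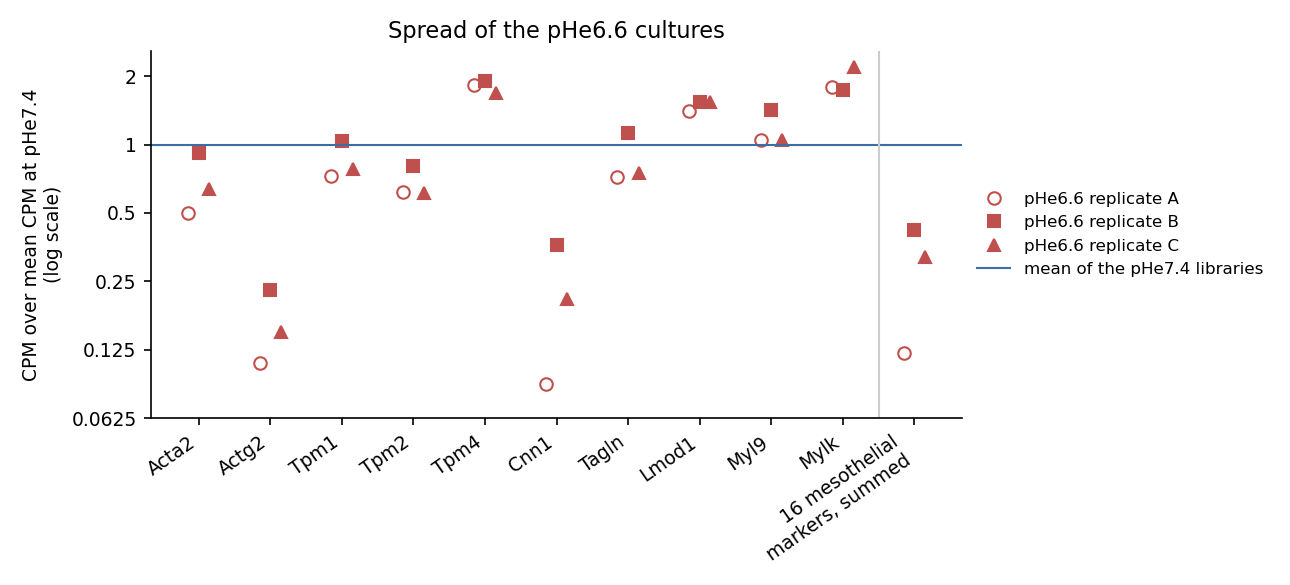
CPM of each contractile gene in each pHe6.6 library, divided by the gene's mean over the 3 pHe7.4 libraries (log axis, line at 1), with the sum of 16 mesothelial markers at the right. Replicate A (open circles) is lowest for 7 of the 10 genes and for the mesothelial sum, and replicate B (squares) is highest for 8 of the 10.

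Related genes were taken as 7 lists that hold 64 genes, of which 60 were tested. At pHe6.6, 12 of these were higher and 15 lower, so that 45.0% were called, against 52.3% of all genes. Their median log2 fold change was -0.060. Without pHe6.6 replicate B, 33 were called, 11 as higher and 22 as lower, against 51.4% of all genes in that fit.

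Of 15 other smooth muscle differentiation genes, 2 were higher, 3 lower and 10 not called (median log2 fold change -0.20). Synpo2, an actin-bundling protein of muscle Z-discs and stress fibers, had 160 ± 5.69 CPM at pHe6.6, against 41.8 ± 5.14 CPM at pHe7.4 (SD, n = 3 each; log2 fold change 1.94). Des, the muscle intermediate filament desmin that also marks stellate cells, was higher by 0.68 on the log2 scale. Cnn3, the widely expressed calponin, fell by 0.82, the scaffold protein Pdlim7 by 0.63 and the focal adhesion protein Tgfb1i1 by 0.31. Cald1, caldesmon, was the most abundant gene of this list, with a log2 fold change of -0.04 (adjusted p = 0.818, edgeR). Myh11, the smooth muscle myosin heavy chain and a late marker of the smooth muscle state, had 41.4 ± 18.3 CPM at pHe6.6, against 52.5 ± 8.36 CPM at pHe7.4 (log2 fold change -0.34, adjusted p = 0.446, edgeR).

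Among 4 other tropomyosin, leiomodin and tropomodulin genes tested, Tmod2 and Tmod3, which cap the pointed ends of actin filaments, were higher by 0.84 and 0.27 on the log2 scale, and Tpm3 fell by 0.35. Tmod1 was not called, and Lmod2, Lmod3 and Tmod4 were below the filter. Of 7 nonmuscle myosin II chains, the light chain Myl12b was higher (log2 fold change 0.80), the light chain Myl6b and the heavy chain Myh10 were lower (-1.11 and -0.49), and Myh9, Myh14, Myl6 and Myl12a were not called, with log2 fold changes between -0.04 and 0.13. The heavy chain Myh9 was the most abundant, with 2976 ± 585 CPM at pHe6.6, against 3069 ± 433 CPM at pHe7.4 (SD, n = 3 each).

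Light chain phosphorylation is set by Mylk on one side and by myosin phosphatase on the other, and the genes of both sides included some that were higher at pHe6.6. Of 14 control genes, 4 were higher, 4 lower and 6 not called. Ppp1cb, the catalytic subunit of myosin phosphatase, had 498 ± 29.8 CPM at pHe6.6, against 243 ± 14.7 CPM at pHe7.4 (SD, n = 3 each; log2 fold change 1.04), and its targeting subunit Ppp1r12b had a log2 fold change of 0.78. Rock2, a kinase that inhibits this phosphatase, had 0.87, and the phosphatase inhibitor Ppp1r14a (CPI-17) had 1.57. Ppp1r14b, a related inhibitor, fell by 0.93 on the log2 scale.

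Of SRF and its 6 cofactors, 1 was higher, 1 lower and 5 not called. The log2 fold change was -0.16 for Srf (adjusted p = 0.0578, edgeR), 0.06 for Mrtfa, 0.09 for Mrtfb, 0.03 for Elk3 and 0.10 for Elk4, none of them called, and Elk1, which competes with myocardin for SRF, was higher by 0.30. Myocd, myocardin itself, was nearly at the detection limit at pHe6.6. It had 0, 5 and 2 counts in pHe6.6 replicates A, B and C, against 36, 27 and 32 counts in the pHe7.4 replicates. It passed the filter on low counts only through the pHe7.4 group, so that its call as lower carries no weight of its own. After normalization the summed counts, 7 at pHe6.6 and 95 at pHe7.4, gave a ratio of 0.0793 (exact 95% interval 0.0310 to 0.170). That interval holds counting error over pooled libraries only, not the spread among cultures, and adds no support to the call. Myocd is the 1 gene counted as lower in this list and is among the 15 related genes counted as lower.

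Among 10 actin crosslinkers and focal adhesion partners, 2 were higher, 4 lower and 4 not called. Zyx, zyxin, which gathers at stress fibers and focal adhesions under tension, had 297 ± 39.6 CPM at pHe6.6, against 673 ± 21.4 CPM at pHe7.4 (SD, n = 3 each; log2 fold change -1.18). The LIM protein Fhl2 fell by 1.09, the actin polymerase Vasp by 0.48 and paxillin, Pxn, by 0.44. The α-actinin Actn4 and the LIM protein Fhl1 were higher by 0.51 and 0.79. Flna, filamin A, was the most abundant of the list, with a log2 fold change of -0.22 (adjusted p = 0.235, edgeR).

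**Figure D5:**
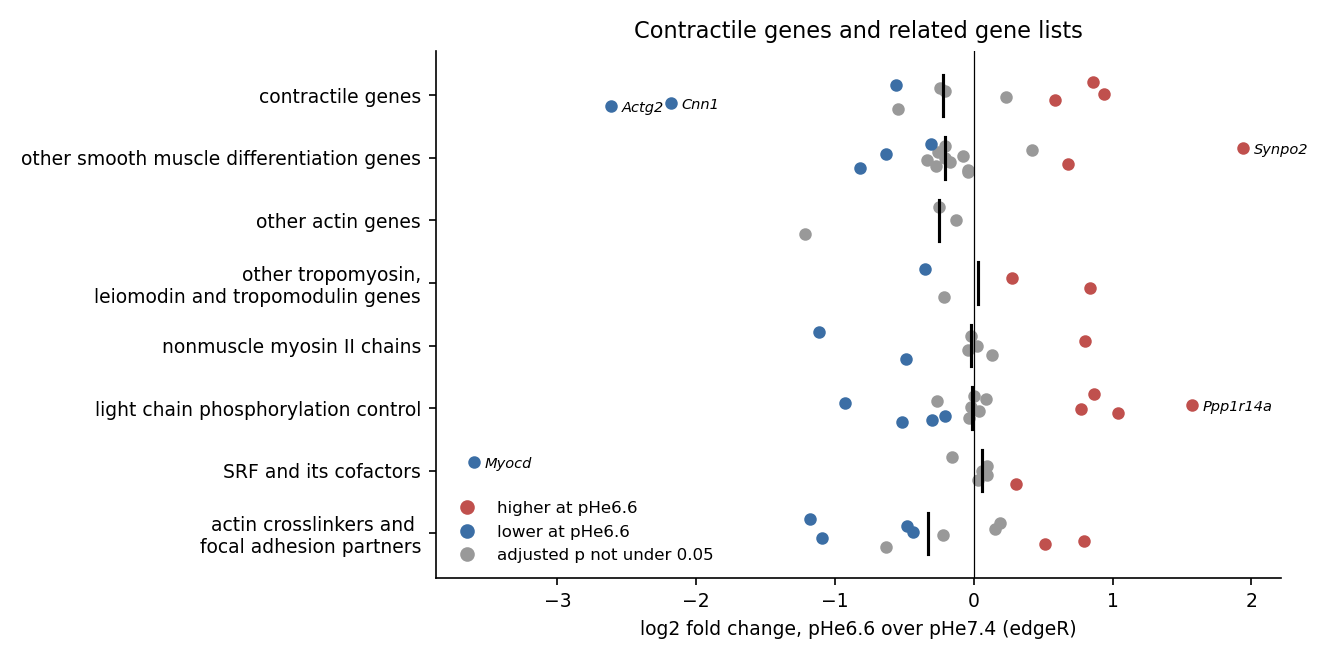
Log2 fold change (horizontal axis, pHe6.6 over pHe7.4, edgeR) of every tested gene of the contractile genes and of the 7 related lists, with a vertical bar at each list's median. Red points were higher and blue points lower at pHe6.6 at an adjusted p under 0.05, and grey points were not called; genes on both sides of 0 occur in all lists but the other actin genes.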

How the data were processed

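RNA from 6 PSC cultures was sequenced after poly(A) selection with a directional kit. The authors aligned reads to mm10 with HISAT2 2.2.1 and deposited raw counts per Ensembl gene from featureCounts 2.0.1; the strand setting and annotation release are not given in the sources used here. The authors' own comparison table (limma 3.50.1; fold changes and p-values) was used only for its gene names.

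The counts were fitted with edgeR 4.0.16 in R 4.3.3 (TMM, robust quasi-likelihood test, no covariate), keeping genes that reached 0.5 CPM in 2 or more libraries. The size of each log2 fold change over the square root of its F statistic served as standard error. The test was tested on simulated data first. Shares were compared by exact permutation tests. Gene positions, exon lengths and overlaps came from GENCODE vM21 on GRCm38, the assembly behind mm10. Mrtfa and Mrtfb are listed under older symbols in the table.

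The members and lists were chosen with earlier results of these data known. All members were named and, in other lists, all genes of SRF and its cofactors, actins, tropomyosins and nonmuscle myosins, and otherwise no more than 5 genes, namely the most abundant and those lowest in adjusted p. An item that this rule names is not reported here. Des, Myh11, Ppp1r14a, Actn4, Fhl1 and the marker genes named were chosen after their values were seen. Alternatives were other normalizations, filters, tests (DESeq2 1.42.0, limma-voom 3.58.1, edgeR's glmTreat), a replicate term and leaving out each library.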

Additional observations from a re-analysis of the deposited data

How the results depend on the processing

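No member reversed its direction under any of 14 alternatives, and 132 of 140 member values kept their side of the threshold. Without pHe6.6 replicate B the members called lower numbered 6, so that leaving out a library gave 3 to 6. Against a log2 change of 0.58 (glmTreat), 4 members were called, and of the related genes 12 instead of 27, 7 higher and 5 lower; over all genes this test called 2333 instead of 7955. With DESeq2 or limma-voom 7 members were called, and without the filter on low counts 5. With upper-quartile factors the median log2 fold change of all genes was -0.043 and the members called were again 6. Counted per exon length, the difference in tropomyosin share (pHe6.6 minus pHe7.4, percentage points) was -8.09 for Tpm1, -8.91 for Tpm2 and -1.58 for Tpm3, instead of -11.6, -6.48 and -2.23. With a replicate block, 6 members (3 higher, 3 lower) and 25 related genes were called; differences in shares cannot change under pairing, and 3 pairs allow no p under 0.25. Same-letter libraries correlated at -0.077 (A), -0.014 (B) and 0.28 (C) in their deviations and 2 of 6 correlated best with their own letter, so the letters are not shown to pair cultures. Shares could not pass a threshold of 0.05 with 3 libraries a group. Counts per gene do not resolve isoforms, and 53.3% of the 75-base stretches of Tagln and 12.1% of those of Tpm4 also occur in other annotated genes. So do 33.5% of those of Actg1 and 19.1% of those of Tpm3, which count toward the actin and tropomyosin totals. The effect of this on the shares was not tested.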

Other observations

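Markers of vascular mural cells, which share several contractile genes with myofibroblasts, did not move together. Their sum was 586 to 647 CPM at pHe6.6, against 224 to 307 CPM at pHe7.4. The largest parts at pHe6.6 were Notch3 and Ndufa4l2, with means of 337 and 128 CPM, against 40.9 and 13.8 CPM at pHe7.4. Of 10 tested, 3 were higher at pHe6.6, the receptor gene Notch3 with a log2 fold change of 3.04 and the mitochondrial genes Cox4i2 with 2.71 and Ndufa4l2 with 3.21. The 4 that were lower were Rgs5, a regulator of G protein signaling, with -1.64, the adhesion molecule Mcam with -1.33, the potassium channel gene Kcnj8 with -1.89, and Myocd, which passed the filter on low counts only through the pHe7.4 group. Among 10 stellate cell and fibroblast markers, 6 were higher at pHe6.6, among them the proteoglycan genes Dcn (log2 fold change 1.62) and Lum (1.94) and the receptor gene Pdgfra (1.06). Col1a1, which encodes the α1 chain of type I collagen, was lower, with 7428 ± 1195 CPM at pHe6.6, against 14583 ± 2422 CPM at pHe7.4 (SD, n = 3 each).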
